A study of Homo sapiens with 8 samples.

Results

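Small Cajal body RNAs (scaRNAs) were followed through 8-oxoG immunoprecipitation and formaldehyde exposure. The 9 genes SCARNA2, SCARNA5, SCARNA6, SCARNA7, SCARNA9, SCARNA10, SCARNA12, SCARNA13 and SCARNA17 were taken by symbol from the 58735 genes in the files. Each is annotated as a single transcript, and 8 of the 9 were among the 18242 genes with enough reads to be tested. The RNA came from BEAS-2B, an established human bronchial epithelial cell line grown on inserts at an air-liquid interface and exposed for 2 h to clean air or to 1 ppm formaldehyde, followed by 6 h of recovery. Ribosomal RNA was removed in every group, and each RNA pool was split into an input fraction and a fraction immunoprecipitated with an antibody against 8-oxoguanine (8-oxoG), an oxidized base. This gave 4 groups of 2 libraries: clean air input (CA_IN), formaldehyde input (FA_IN), clean air immunoprecipitate (CA_IP) and formaldehyde immunoprecipitate (FA_IP). The replicates carry the numbers 1 and 3.

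Libraries held 26152651 to 45144392 expected counts in the inputs and 16883500 to 23658012 in the immunoprecipitates. The cell type was checked against marker genes. All 9 airway epithelial genes passed the count filter, from KRT7 at group means of 1538 to 2250 CPM (counts relative to the library total after TMM, the library scaling of edgeR) to TP63 at 38.8 to 45.1. Of 3 mesenchymal genes, VIM stood at 924 to 1028 CPM, COL1A1 at 8.27 to 10.6 and COL1A2 at 0.584 to 0.680. The leukocyte genes PTPRC, CD3E and LYZ and the endothelial VWF stood at 0.193 CPM or less, and PECAM1 at 0.489 to 0.525.

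ScaRNAs are guide RNAs that gather in Cajal bodies, nuclear compartments in which spliceosomal RNAs mature. They direct ribose methylation through C/D motifs and pseudouridylation through H/ACA motifs, and their targets are the spliceosomal small nuclear RNAs (snRNAs). C/D guides bind the methylase fibrillarin, H/ACA guides bind the pseudouridine synthase dyskerin, and a further protein, WRAP53, holds scaRNAs with a CAB motif in the Cajal body.

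By their known classes, SCARNA2, SCARNA7, SCARNA9 and SCARNA17 are C/D guides. SCARNA5, SCARNA6, SCARNA10 and SCARNA12 join C/D and H/ACA parts in 1 molecule, and SCARNA13 is an H/ACA guide. The letters ATGATGA or GTGATGA, which fit the C motif, were present on the RNA strand of 6 of the 9 models, compared with 8.79% of 19381 annotated transcripts of 250 to 450 nt. The letters CTGA, which fit the D motif, lay within the last 15 bases of 7 of the 9, compared with 7.18% of those transcripts. ACA exactly 3 bases before the 3′ end, as in H/ACA RNAs, was found in SCARNA13 alone, compared with 1.95%. A match is a description of letters and no evidence of a working motif.

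Sequences of 3 members are shown because among the tested members they had the largest fall in clean air (SCARNA6), the smallest fall that passed the test in both treatments (SCARNA13) and no fall that passed (SCARNA9) in the comparison of immunoprecipitated with input RNA. They are written 5′ to 3′ as DNA letters of the GENCODE 44 transcripts on GRCh38. Capitals mark the C motif, the CTGA near the 3′ end or the terminal ACA. SCARNA6 lies at chr2:233288676-233288940 on the plus strand, SCARNA13 at chr14:95533355-95533629 on the minus strand, and SCARNA9 at chr11:93721513-93721865 on the plus strand, of which bases 54 to 353 are printed.
SCARNA6: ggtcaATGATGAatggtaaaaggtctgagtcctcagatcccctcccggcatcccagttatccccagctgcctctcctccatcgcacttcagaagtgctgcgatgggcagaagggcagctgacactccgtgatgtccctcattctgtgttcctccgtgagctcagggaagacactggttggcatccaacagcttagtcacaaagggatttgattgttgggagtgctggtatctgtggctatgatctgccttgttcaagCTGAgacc
SCARNA13: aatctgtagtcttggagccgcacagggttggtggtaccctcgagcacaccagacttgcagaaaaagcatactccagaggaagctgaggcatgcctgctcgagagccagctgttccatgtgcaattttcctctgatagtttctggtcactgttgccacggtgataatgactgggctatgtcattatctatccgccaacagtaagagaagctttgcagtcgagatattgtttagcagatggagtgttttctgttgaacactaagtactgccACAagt
SCARNA9: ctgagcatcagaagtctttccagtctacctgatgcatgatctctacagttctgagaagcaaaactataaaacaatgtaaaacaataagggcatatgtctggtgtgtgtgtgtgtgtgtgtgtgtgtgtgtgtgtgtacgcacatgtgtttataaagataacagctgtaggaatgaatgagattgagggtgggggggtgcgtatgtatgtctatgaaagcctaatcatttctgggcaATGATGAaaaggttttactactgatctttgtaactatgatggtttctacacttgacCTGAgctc

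The tested members were 265 to 420 nt long. SCARNA2 lies at chr1:109100193-109100612 on the plus strand, inside the single exon of an unnamed long noncoding RNA gene of 427 nt (ENSG00000270066). SCARNA5 (chr2:233275727-233276002, plus strand) and SCARNA6 lie in introns of ATG16L1, an autophagy gene. SCARNA7 (chr3:160514907-160515236, minus strand) lies in an intron of KPNA4, which encodes an importin, SCARNA9 in one of CEP295, a centrosomal protein, and SCARNA10 (chr12:6510222-6510551, plus strand) in one of NCAPD2, a condensin subunit. SCARNA12 (chr12:6967337-6967606, minus strand) lies within PHB2, a prohibitin gene, and overlaps an exon of 1 isoform in the files. SCARNA13 lies within SNHG10, a noncoding host gene, and opposite an exon of GLRX5. SCARNA17 (chr18:49814133-49814276, plus strand) overlaps an exon of SNHG22. Counts of SCARNA2, SCARNA12 and SCARNA13 were not all whole numbers, which in RSEM, the counting program, means that some of their reads mapped to more than 1 transcript. The study's RSEM command sets no strand option, so reads of SCARNA13 and of the opposite GLRX5 exon cannot be told apart by strand.

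In the inputs, levels per length of the 8 tested members spanned from 15.1 CPM per kb for SCARNA9 to 1427 for SCARNA2 in clean air (means, n = 2). SCARNA2, a guide for U2 snRNA, was the most abundant in every group, at 1427 ± 210 CPM per kb in CA_IN and 1632 ± 120 in FA_IN (SD, n = 2). SCARNA10, which guides modification of U5 snRNA, came next in the inputs, at 872 ± 74.9 and 918 ± 52.9 CPM per kb (SD, n = 2). SCARNA12 and SCARNA13 did not differ beyond their ranges, with 418.6 to 546.5 and 381.2 to 505.2 CPM per kb over the 4 inputs, and the range of SCARNA7 (334.7 to 395.6) overlapped that of SCARNA13. SCARNA5 (111 to 131), SCARNA6 (77.9 to 98.8) and SCARNA9 (14.9 to 20.4 CPM per kb) followed with ranges that did not overlap. In the immunoprecipitates SCARNA2 remained first, and the ranges of SCARNA10, SCARNA13 and SCARNA12 overlapped in sequence, as did those of SCARNA5, SCARNA6 and SCARNA9. The overlaps depended on the scale. On the deposited TPM, which is normalized by effective length, SCARNA13 (538 to 750) lay above SCARNA7 (338 to 401) in the inputs. In the immunoprecipitates SCARNA6 (45.8 to 95.8 TPM) lay above SCARNA9 (17.5 to 26.4).

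**Figure D1:**
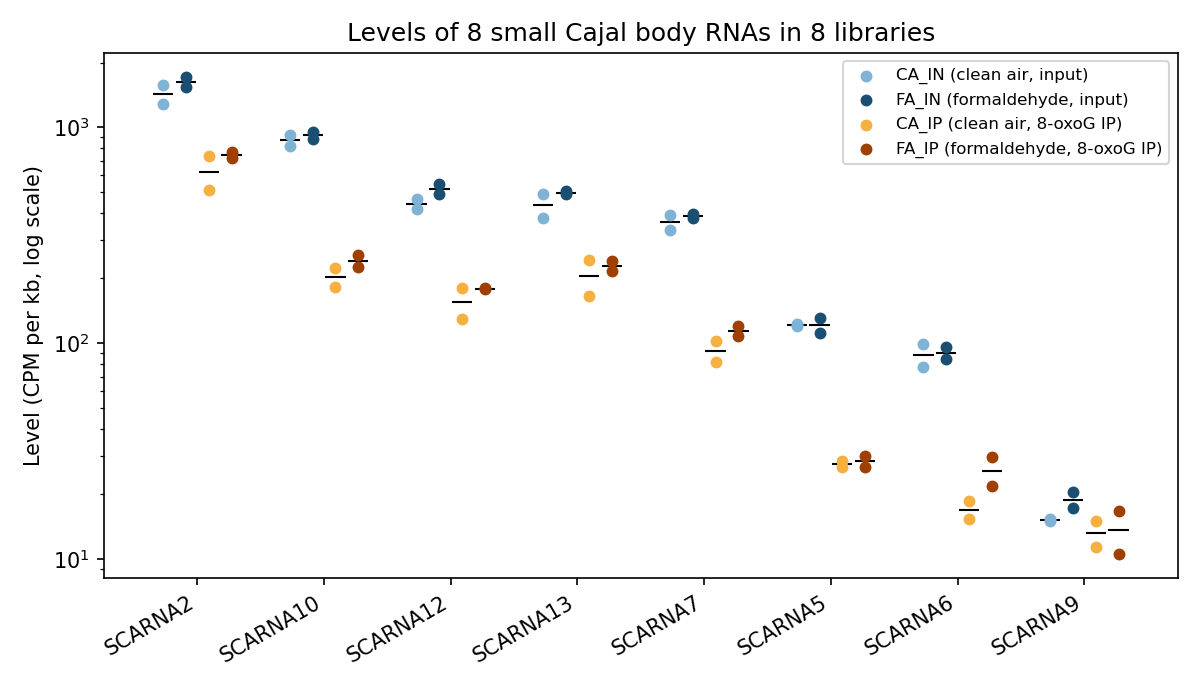
Level of each tested scaRNA in every library, in CPM per kb of annotated length on a log axis; points are libraries, short lines group means of 2. Immunoprecipitated points lie below the input points for 7 members and overlap them for SCARNA9.

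The comparison of immunoprecipitated with input RNA asks which RNAs were recovered with the antibody more or less than others. Of the 8 tested scaRNAs, 7 fell in CA_IP relative to CA_IN and none rose, whereas 1.77% of all tested genes were lower and 0.148% higher (edgeR quasi-likelihood test, Benjamini-Hochberg adjusted p under 0.05). The same 7 fell in FA_IP relative to FA_IN, where 1.47% of all genes were lower and 0.0329% higher. The 7 were SCARNA2, SCARNA5, SCARNA6, SCARNA7, SCARNA10, SCARNA12 and SCARNA13. The median log2 fold change (log2FC) of the 8 members was -1.75 in clean air and -1.65 in formaldehyde, beside 0.016 and 0.003 over all tested genes. These values are relative to the other RNAs in a library. The balance of calls over all genes turned with the scaling and with a block for the RNA pool. Of the genes called in clean air, 7.74% were higher, compared with 71.0% when library size replaced TMM and 98.8% with TMM over genes of at most 500 nt (2.19%, 56.7% and 98.8% in formaldehyde). Under this last scaling the member medians were -0.82 and -0.81 and SCARNA9 was called higher in clean air. With TMM kept and the RNA pool as a block, 66.4% of the genes called were higher in clean air and 54.2% in formaldehyde.

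SCARNA6 held 20.7 and 26.2 CPM in the clean air inputs and 25.5 and 22.3 in those of formaldehyde. Its immunoprecipitates held 4.06 and 4.92 CPM after clean air and 7.85 and 5.75 after formaldehyde. All immunoprecipitated libraries were therefore below all inputs. The log2FC was -2.38 ± 0.21 (SE) in clean air (adjusted p = 0.00044) and -1.82 ± 0.20 in formaldehyde (adjusted p = 0.0020).

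SCARNA5 and SCARNA10 joined SCARNA6 at the low end. SCARNA5 ranged from 30.7 to 36.1 CPM in the 4 inputs and from 7.33 to 8.30 in the 4 immunoprecipitates. Its log2FC was -2.14 ± 0.14 (SE) in clean air and -2.10 ± 0.14 in formaldehyde. SCARNA10 held 270.2 and 305 CPM in the CA_IN libraries, 315 and 291 in those of FA_IN, 59.9 and 73.9 in those of CA_IP and 84.4 and 74.7 in those of FA_IP. It was 4.30-fold lower in CA_IP (log2FC -2.11 ± 0.13, adjusted p = 8.1e-05) and 3.81-fold lower in FA_IP (-1.93 ± 0.12, adjusted p = 0.00017). The C/D guide SCARNA7 ranged from 110 to 131 CPM in the inputs and from 26.9 to 39.5 in the immunoprecipitates. Its log2FC was -1.98 ± 0.13 in clean air and -1.77 ± 0.13 in formaldehyde (SE).

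SCARNA12, SCARNA2 and SCARNA13 fell less. SCARNA12 ranged from 113 to 148 CPM in the inputs and from 35.0 to 48.9 in the immunoprecipitates, with a log2FC of -1.51 ± 0.15 (SE) in clean air and -1.53 ± 0.15 in formaldehyde. SCARNA2 held 537 and 662 CPM in the CA_IN libraries, 721 and 650 in those of FA_IN, 214 and 308 in those of CA_IP and 324 and 303 in those of FA_IP. It was 2.29-fold lower in CA_IP (log2FC -1.20 ± 0.17, adjusted p = 0.0063) and 2.19-fold lower in FA_IP (-1.13 ± 0.17, adjusted p = 0.010). TMM over genes of at most 500 nt gave SCARNA2 a log2FC of -0.28 and -0.29, neither of which passed, and the log2 ratio of the deposited TPM was -0.34 and -0.25. SCARNA13 held 105 and 135 CPM in the CA_IN libraries, 139 and 135 in those of FA_IN, 45.6 and 67.0 in those of CA_IP and 59.3 and 66.3 in those of FA_IP. This H/ACA guide was 2.13-fold lower in clean air (log2FC -1.09 ± 0.18, adjusted p = 0.017) and 2.18-fold lower in formaldehyde (-1.12 ± 0.18, adjusted p = 0.016). For SCARNA13 the same scaling gave -0.17 and -0.29, neither of which passed, and TPM gave -0.24 and -0.22.

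SCARNA9, also a guide for U2 snRNA, did not pass the test. It held 5.42 and 5.27 CPM in the CA_IN libraries, 7.20 and 6.10 in those of FA_IN, 5.28 and 4.00 in those of CA_IP and 3.71 and 5.88 in those of FA_IP. Inputs and immunoprecipitates overlapped. The log2FC was -0.20 in clean air (95% interval -0.75 to 0.35, adjusted p = 0.82) and -0.46 in formaldehyde (-1.01 to 0.10, adjusted p = 0.68). Its direction depended on the scale: TMM scaling over genes of at most 500 nt gave 0.74 in clean air (adjusted p = 0.022), and the deposited TPM was 17.5 to 26.4 in the immunoprecipitates and 13.2 to 16.5 in the inputs. Between 67 and 236 counts per library stood behind these values.

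**Figure D2:**
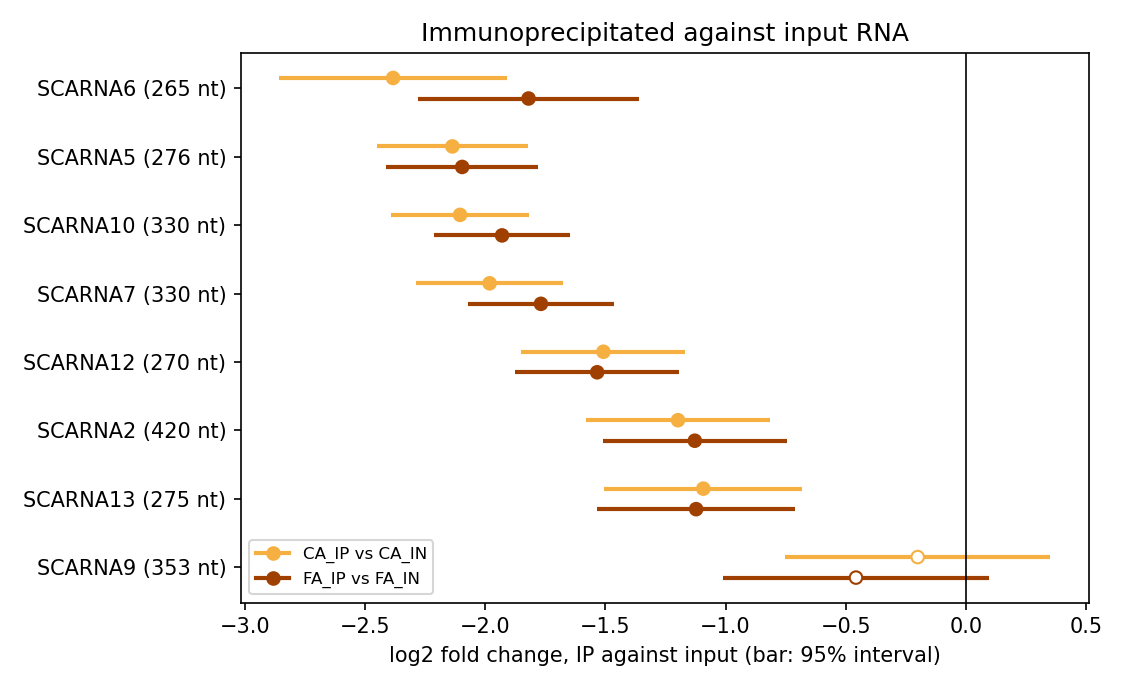
log2FC of immunoprecipitated against input RNA for each tested scaRNA in clean air and formaldehyde, with 95% intervals; filled points passed an adjusted p under 0.05. The intervals of 7 members lie below 0 in both treatments, and those of SCARNA9 cross 0.

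Within the RNA pools that were split into both fractions, all 8 members were lower in the immunoprecipitate in each of the 4 pools. On this TMM-scaled CPM, 17.5% of all tested genes were lower in all 4 pools. On TPM the other 7 were again lower in all 4 pools, and SCARNA9 was higher in all 4. All 4 immunoprecipitated libraries lay below all 4 inputs for 7 members, compared with 5.9% of all tested genes. On TPM this held for 5 members, since SCARNA2 and SCARNA13 then overlapped as well. With the pool as a block in edgeR the same 7 members fell, while the genes called in either direction went from 349 (1.91%) to 3179 in clean air and from 274 (1.5%) to 1835 in formaldehyde. The 9 members together took 0.115 to 0.14% of the counts in the inputs and 0.0429 to 0.0616% in the immunoprecipitates. SCARNA2 kept its call in clean air whichever library was left out. SCARNA13 missed the threshold in clean air without CA_IN replicate 3 (adjusted p = 0.096) or CA_IP replicate 1 (0.068), and narrowly without FA_IN replicate 1 or 3 (0.0501 and 0.05004). SCARNA2 and SCARNA13 both missed it in formaldehyde when any 1 of the 4 libraries compared was left out (edgeR adjusted p 0.072 to 0.177), while the log2FC stayed between -1.18 and -1.04 for SCARNA2 and between -1.19 and -1.05 for SCARNA13. The TMM scaling over genes of at most 500 nt moved the median log2FC of all genes to 0.95 and 0.83.

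The proportions among the scaRNAs also differed between fractions, and these do not depend on the scaling of libraries. SCARNA2 made up 45.0 to 47.4% of the counts of the 8 tested members in the inputs and 53.7 to 56.2% in the immunoprecipitates. SCARNA10 went the other way, with 20.7 to 22.6% and 13.5 to 15.0%. Relative to the other 7, SCARNA9 and SCARNA13 were higher in the immunoprecipitate in 4 of 4 pools (mean log2 difference 1.07 and 0.35), as was SCARNA2 (0.52). SCARNA5, SCARNA6, SCARNA7 and SCARNA10 were lower in 4 of 4 pools (-0.70, -0.69, -0.49 and -0.72), and SCARNA12 stayed near its share (-0.11, higher in 1 of 4). The largest spread between pools was that of SCARNA9, from 0.45 to 1.56. A fall of 1 member raises the others in such a ratio, so these are descriptions and were not tested.

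**Figure D3:**
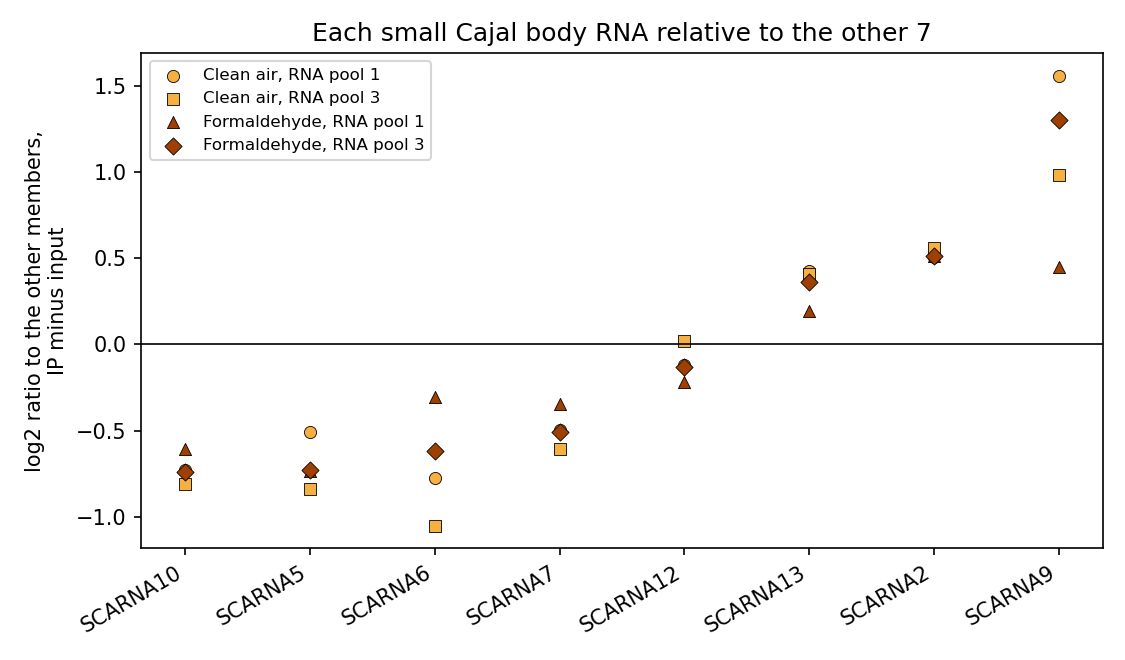
log2 ratio of each scaRNA to the other 7 tested members, immunoprecipitate minus input, for the 4 RNA pools. SCARNA13, SCARNA2 and SCARNA9 lie above 0 in all pools, and SCARNA10, SCARNA5, SCARNA6 and SCARNA7 below 0.

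By class, the 4 mixed guides lay between -2.38 and -1.51 on the log2 scale in clean air and between -2.10 and -1.53 in formaldehyde. The 3 tested C/D guides were spread from -1.98 to -0.20 and from -1.77 to -0.46. The single H/ACA guide lay at -1.09 and -1.12. With so few members per class no difference between classes was tested.

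The log2FC of all tested genes varied with RNA length. The length of a gene was that of its annotated isoform with the most counts, whereas its log2FC used counts summed over all isoforms. The median log2FC in clean air was -2.82 for 75 genes of at most 150 nt, -0.56 for 443 genes of over 150 to 500 nt, -0.08 for 2069 genes of over 500 to 1000 nt and 0.03 for 15655 longer genes. The corresponding medians in formaldehyde were -2.41, -0.54, -0.11 and 0.01. Genes of 250 to 450 nt, a window that holds all 8 tested members, had medians of -0.57 and -0.56, and of these 248 genes, 20.2% were lower in clean air and 18.5% in formaldehyde. The members were not removed from this window. Of its 50 genes lower in clean air, 7 were members, as were 7 of the 46 in formaldehyde. The member medians of -1.75 and -1.65 lay below those medians, beside a 10th percentile of -1.74 and -1.69 in that window. Whether length accounts for the low values of the members was not tested.

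Of members of like length, SCARNA13 and SCARNA5 differed, while SCARNA7 and SCARNA10 lay close. The longest, SCARNA2 at 420 nt, and SCARNA13 at 275 nt had log2FC values of -1.20 and -1.09 in clean air, while SCARNA13 and SCARNA5, which differ by 1 base in length (275 and 276 nt), lay at -1.09 and -2.14 in clean air. SCARNA7 and SCARNA10, both of 330 nt, lay at -1.98 and -2.11. Over the 8 members, Spearman's rho of log2FC with length was 0.49 in clean air and 0.31 in formaldehyde, values that share the same libraries and fell to 0.31 and 0.04 without SCARNA9. Guanine, the base whose oxidized form the antibody binds, made up 24.5% (SCARNA7) to 36.7% (SCARNA2) of the 8 sequences. Spearman's rho of log2FC with this share was 0.00 and 0.02.

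**Figure D4:**
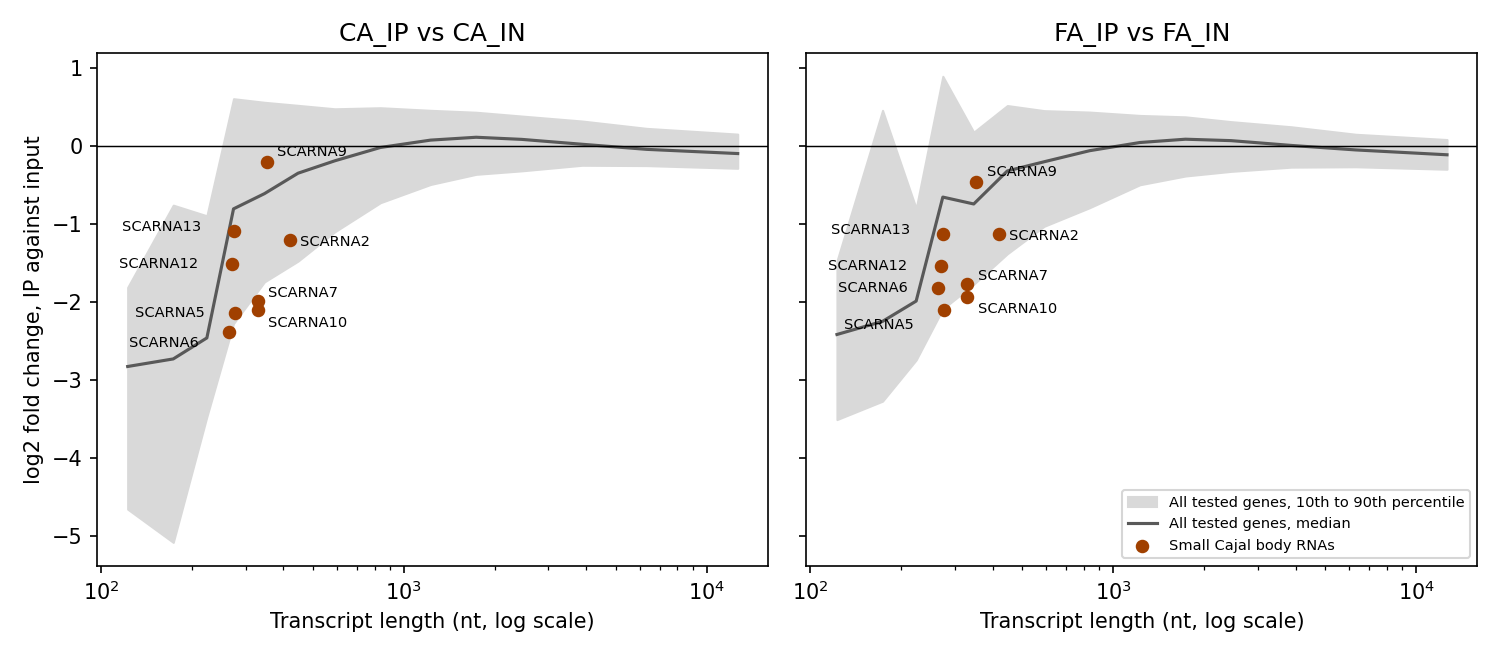
log2FC of immunoprecipitated against input RNA by transcript length on a log axis, with the median and the 10th to 90th percentile of all tested genes in length bins. The shortest RNAs lie lowest, 7 of the 8 scaRNAs lie below the median line in both treatments, and SCARNA9 lies above it.

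Other small guide RNAs and the snRNAs had lower medians than the scaRNAs in clean air. Of 16 further SCARNA genes in the files, 3 were tested and 1 fell in each treatment, SCARNA16 (187 nt), at -2.88 ± 0.25 and -2.76 ± 0.25 (SE). The other 2, SCARNA22 and SCARNA1, did not pass, with -1.14 and -3.56 in clean air. Among H/ACA small nucleolar RNAs (SNORA genes) 40 of 63 tested fell in clean air and 25 in formaldehyde, none rose, and the medians were -2.92 and -2.49. Of all 75 tested genes of at most 150 nt, 60% fell in clean air and 36% in formaldehyde. The most abundant were SNORA73A (-2.99 and -2.74) and SNORA73B (-2.04 and -1.99). Among C/D small nucleolar RNAs (SNORD genes), 7 of 13 tested fell in clean air (SNORD3A, SNORD3C, SNORD10, SNORD17, SNORD22, SNORD94 and SNORD97) and 4 in formaldehyde (SNORD3A, SNORD10, SNORD17 and SNORD118), with medians of -2.78 and -2.22. SNORD3A and SNORD17, the most abundant, lay at -2.88 and -3.02 in clean air. The median lengths of the tested genes in these lists were 134 and 146 nt.

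Of 24 listed snRNA genes, 16 were tested, and 15 fell in clean air and 11 in formaldehyde, with medians of -3.39 and -2.61. The 11 were RNU1-1, RNU1-2, RNU1-3, RNU1-4, RNVU1-7, RNU2-2P, RNU4-1, RNU4-2, RNU5B-1, RNU5F-1 and RNU6ATAC, and in clean air RNU5D-1, RNU5E-1, RNU12 and RNVU1-18 were added, which leaves RNU5A-1 as the gene that passed in neither. RNU2-2P, a U2 gene and the most abundant of them, had a log2FC of -3.30 and -3.10, and RNVU1-7, a variant of U1, one of -3.48 and -2.34. Copies of U1 are near identical, so the division of reads among RNU1-1 to RNU1-4 and RNVU1-18 is uncertain. RNU1-1 and RNU1-3 held equal counts in every library, as did RNU1-2 and RNU1-4. Each of these pairs is therefore 1 measurement that enters the counts of genes and the medians above 2 times. RNVU1-18 also held the counts of RNU1-1 in both CA_IP libraries (44.93 and 64.69) and in FA_IP replicate 1 (130). TERC, the telomerase RNA and an H/ACA RNA with a CAB motif, did not pass the test at 541 nt (-0.55 ± 0.26 and -0.96 ± 0.26).

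The mRNAs of the proteins that carry or place scaRNAs showed few calls. Of 6 H/ACA protein genes only NOP10, whose mRNA was the shortest of them at 554 nt, passed the test (-1.39 ± 0.13 in clean air and -1.25 ± 0.13 in formaldehyde). DKC1, which encodes dyskerin, lay at 0.16 and 0.10 and NHP2 at 0.09 and -0.04. None of 9 C/D protein genes and none of 20 Cajal body or snRNA assembly factors passed. The most abundant were NOP56 (0.18 and 0.15) and RUVBL2 (0.44 and 0.34) among the former, and NOLC1 (0.11 and 0.02) and SMN1 (0.05 and 0.09) among the latter, where SMN1 shares reads with the near-identical SMN2. FBL, the fibrillarin gene, lay at 0.23 and 0.19 and WRAP53 at 0.29 and 0.07, both named for their roles and not by the rule for named genes.

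Most host genes did not pass the test. In clean air ATG16L1 lay at 0.26, KPNA4 at -0.06, CEP295 at -0.18, NCAPD2 at 0.11, PHB2 at 0.24 and SNHG10 at 0.20 and in formaldehyde they lay between -0.30 and 0.20. The exception was ENSG00000270066, the 427-nt gene that contains SCARNA2, at -1.76 ± 0.14 in clean air and -2.18 ± 0.15 in formaldehyde (SE, adjusted p = 0.00033 and 0.00019). Its counts were 1978, 1748, 1071 and 1219 in the inputs and 309, 302, 162 and 211 in the immunoprecipitates, against 17327 to 24224 and 5073 to 7386 for SCARNA2. SCARNA2 lies wholly within this RNA, so the division of reads between them is uncertain.

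SCARNA17 could not be tested. Its listed counts were 0, 0.53, 3.10 and 0.88 in the inputs and 1.97, 3.45, 1.83 and 0 in the immunoprecipitates. The model in the files is 144 nt long, whereas RefSeq lists the RNA at 421 nt. An isoform of SNHG22 that covers the 144-nt model (ENST00000615535) is also 421 nt in the files and held 691, 502, 420 and 453 counts in the inputs and 489, 388, 325 and 487 in the immunoprecipitates. How reads of a 421-nt SCARNA17 were assigned was not tested. SNHG22 did not pass the test in either treatment (log2FC 0.40 ± 0.17 in clean air, adjusted p = 0.38, and 0.32 ± 0.17 in formaldehyde, adjusted p = 0.69).

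In the inputs, the comparison of formaldehyde with clean air asks whether exposure changed the abundance of these RNAs. In RNA from whole cultures, less RNA per cell cannot be told apart from fewer cells that carry it. In the inputs 0 of the 8 scaRNAs passed the test, compared with 0.00548% of all genes (1 of 18242; 611 had an unadjusted p under 0.05, and DESeq2 on all 8 libraries called 3), and with the replicate number as a block 258 genes were called and again 0 members. The log2FC of FA_IN against CA_IN ranged from -0.00 for SCARNA5 (95% interval -0.29 to 0.29) to 0.31 for SCARNA9 (-0.23 to 0.85). SCARNA2 lay at 0.19 (-0.18 to 0.57), SCARNA10 at 0.07 (-0.20 to 0.35) and SCARNA12 at 0.23 (-0.10 to 0.56). Replicate 1 was higher in formaldehyde for all 8 members (0.12 to 0.42 on the log2 scale), and replicate 3 for 2 of them (-0.23 to 0.21), so the replicates differed in direction. For SCARNA9 and SCARNA12 both FA_IN libraries lay above both CA_IN libraries, and 18.1% of all genes showed the same order (15.8% the opposite one).

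In the immunoprecipitates likewise 0 of 8 members passed, as did 0% of all genes (871 had an unadjusted p under 0.05, and DESeq2 on all 8 libraries called 4). A level in these libraries mixes abundance with recovery by the antibody. The study did not make this comparison, since it takes input RNA as the reference for enrichment. With the replicate number as a block 379 genes were called and 0 members. SCARNA6 lay highest at 0.59 (95% interval 0.11 to 1.08, unadjusted p = 0.023, adjusted p = 0.91), with 4.06 and 4.92 CPM in CA_IP and 7.85 and 5.75 in FA_IP. SCARNA7 followed at 0.30 (0.00 to 0.61, adjusted p = 0.91) and SCARNA2 at 0.26 (-0.12 to 0.64). Groups did not overlap for SCARNA6, SCARNA7 and SCARNA10, all higher in FA_IP, an order seen in 15.8% of all genes (17.2% the opposite one). The median over the 8 members was 0.23, beside -0.005 over all genes. Leaving out CA_IP replicate 3 moved that median to 0.47 and leaving out CA_IP replicate 1 to 0.10.

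**Figure D5:**
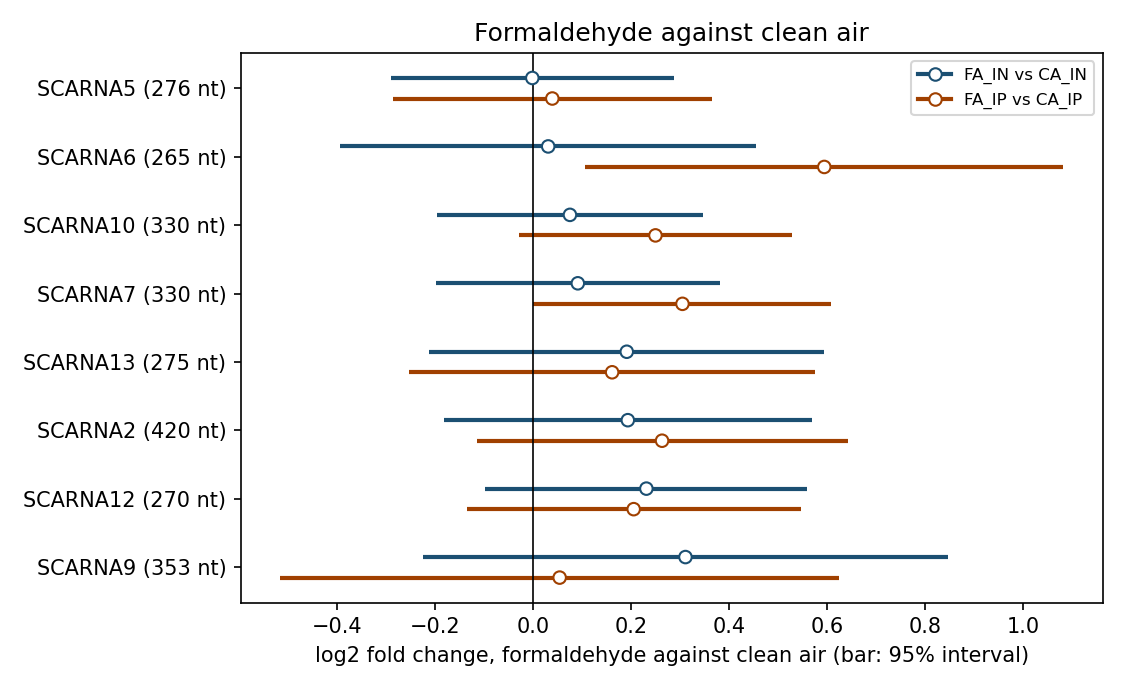
log2FC of formaldehyde against clean air for each tested scaRNA in the inputs and in the immunoprecipitates, with 95% intervals; open points did not pass an adjusted p under 0.05. The intervals include 0 except those of SCARNA6 and, barely, SCARNA7 in the immunoprecipitates.

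Whether exposure changed the recovery with the antibody was tested as the interaction of treatment and fraction. Again 0 of 8 members and 0% of all genes passed (195 genes had an unadjusted p under 0.05, and DESeq2 on all 8 libraries called 3), also with the pool as a block (25 genes, 0 members). SCARNA6 had the largest difference, 0.56 (95% interval -0.08 to 1.21, adjusted p = 1.00), and SCARNA9 the lowest, -0.26 (-1.04 to 0.53). For SCARNA2, SCARNA5, SCARNA12 and SCARNA13 the difference was between -0.03 and 0.07, and their 95% intervals lay within -0.61 to 0.60. These intervals are from the fit without a block. With the pool as a block, SCARNA6 lay at 0.55 ± 0.16 (SE, edgeR adjusted p = 0.73) and SCARNA9 at -0.24 ± 0.24. SCARNA2 then lay at 0.09 ± 0.09, SCARNA5 at 0.05 ± 0.14, SCARNA12 at -0.01 ± 0.11 and SCARNA13 at -0.02 ± 0.10.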

How the data were processed

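RNA of BEAS-2B cultures was sequenced in 8 libraries. The sample labels and the study's methods name the same clone of the anti-8-oxoG antibody, and the extraction protocol in the labels names another. Libraries were made with a small RNA kit and 75-base paired reads. Reads were trimmed with cutadapt and aligned with STAR 2.6.0a to GRCh38 with Ensembl annotation, and the authors deposited RSEM 1.2.25 expected counts and TPM per transcript, the latter normalized by effective length and library. They also deposited 3 DESeq2 tables of their own comparisons with fold changes and p-values, which were not used.

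Here expected counts were summed by gene and rounded, and genes with at least 10 counts in at least 2 libraries were tested with edgeR 4.0.16 (TMM, quasi-likelihood) in R 4.3.3 on all 8 libraries, with an adjusted p limit of 0.05 and a coefficient of variation between replicates of 0.138. The standard error is the log2FC divided by the square root of F. Symbols came from GENCODE 44 (58207 of 58735 genes), names and lengths also from RefSeq (GRCh38.p14). CPM per kb used the annotated length.

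Replicate numbers came from the library names. Input and immunoprecipitate of a number were split from 1 RNA pool, and same-numbered libraries deviated together in all 6 pairs of groups (correlations 0.203 to 0.38). The study's methods call the replicates biological duplicates. The members and gene lists were chosen with earlier results of these data known. Named are all members and, of each list, the 2 most abundant genes and those that passed in lists of up to 30 tested genes. Alternatives covered scaling, DESeq2 1.42.0, 4-library fits, filters, transcript counts, blocks, a prior count of 2, a log2FC limit of 2 and each library left out. The tests were tried on simulated counts.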

Additional observations from a re-analysis of the deposited data

How the results depend on the processing

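Direction held for the 7 scaRNAs that fell: all 266 alternative values of their log2FC of immunoprecipitated against input RNA lay below 0, from -2.546 to -0.1747, and 243 were called. These 7 were picked because they fell in the main analysis. Some of the 266 values could hardly move, since a prior count of 2 or leaving out a library outside the comparison changes little. The tally is therefore no measure of how firm the falls are. No alternative gave a called scaRNA between formaldehyde and clean air or in the interaction. SCARNA9 was reversed by TMM over genes of at most 500 nt in clean air (0.7386) and by TPM (0.6545 in clean air and 0.3821 in formaldehyde). TPM moved the ratio of every tested member up by 0.862 to 0.913 on the log2 scale. The cause was not tested.

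In CA_IP against CA_IN, the 349 genes called became 1157 with library size in place of TMM, 13897 with TMM over genes of at most 500 nt, 686 with no filter, 1941 with the replicate block, 3179 with the RNA pool as a replicate block, 164 with counts per transcript and 83 with a log2FC beyond 2. The higher share of calls was 7.74% in the main analysis, 71.0% with library size and 98.8% with short-gene TMM. It was 25.7% with DESeq2 on all 8 libraries, 3.94% with DESeq2 on 4, 63.6% with the replicate block and 66.4% with the pool block. For the members, short-gene TMM gave 1 higher and a median of -0.8232, the median over 9 members with no filter was -1.544, and 3 had a called log2FC beyond -2. In FA_IP against FA_IN, the 274 became 561, 12617, 578, 953, 1835, 98 and 49 in the same order. The members' median was -1.479 with library size and -0.8134 with short-gene TMM, counts per transcript left 3 members called and the log2FC limit left 1. In the inputs, the 1 gene called between formaldehyde and clean air became 3 with DESeq2 on all 8 and also 3 on 4 libraries, 0 with edgeR on 4 libraries or counts per transcript, 100 with no filter and 258 with the replicate block. In the immunoprecipitates, 0 became 4 and 5 with DESeq2 on 8 and 4 libraries, 158 with no filter and 379 with the replicate block. In the interaction, 0 became 1 with short-gene TMM, 3 with DESeq2, 52 with no filter, 3 with the replicate block and 25 with the pool block. Neither block changed a call of a member.

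With 1 library left out at a time, the lone library of its group is assumed to vary like the others. The genes called ranged from 196 to 317 in CA_IP against CA_IN, from 121 to 282 in FA_IP against FA_IN, from 0 to 1 in the inputs, from 0 to 4 in the immunoprecipitates and from 0 to 5 in the interaction. Members called lower ranged from 6 to 7 and from 5 to 7, and the members' medians from -1.929 to -1.555 and from -1.696 to -1.544. Their median between formaldehyde and clean air ranged from 0.004 to 0.244 in the inputs and from 0.098 to 0.465 in the immunoprecipitates, and their median interaction from -0.004688 to 0.3035. With 2 libraries a group, all tests rest on few samples.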
